A study of Rattus norvegicus with 12 samples.

Results

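The steroidogenic pathway was examined through 10 genes on the 6 gene expression arrays of the study. They are Star, Cyp11a1, Cyp17a1, Cyp19a1, Tspo, Fdx1, Fdxr, Scarb1, Lhcgr and Insl3. The genes were picked by name and not by their values, though earlier results of these data were known. Each gene was taken as every probe set of the annotation's main category whose only gene symbol equals the gene's name, which gave 10 probe sets, 1 per gene, of 27342. No probe set that lists a member beside other symbols exists in that category. The RNA came from Sertoli cells of 9-day-old rats, isolated by digestion of testes and grown in DMEM/F12 with 10% fetal bovine serum. After 24 h the cultures were kept for another 24 h as controls (3 arrays, called solvent treated in the design text) or with 0.1 mM MBP (3 arrays), an agent whose name is not spelled out in the labels. Both groups carry sample numbers 1 to 3, each number naming 1 control and 1 MBP array. Nothing in the labels says whether a number is an animal, an isolation or a dish, so any p here speaks of variation among these samples, which may be technical. Strain, number of animals and purity of the cells are not given in the sources used here.

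Steroid hormones are made from cholesterol. Star carries cholesterol to the inner mitochondrial membrane, where Cyp11a1 cuts its side chain with electrons that Fdxr takes from NADPH and hands on through Fdx1. Cyp17a1 then leads to androgens and Cyp19a1, aromatase, turns androgens into estrogens. In the testis the androgen-making steps, the LH receptor Lhcgr and the hormone Insl3 are known from Leydig cells, while immature rat Sertoli cells are known for aromatase that responds to FSH.

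Values are log2 signals, so a difference of 1 is 2-fold. A probe set is called above background on an array where it exceeds the 95th percentile of 1153 intron control probe sets, a value of 5.67 to 6.20 across arrays. By this measure 23.2% of all probe sets were above background on all 6 arrays, and 69.3% on none. Median log2 signals per array ran from 3.84 to 3.89. Probe sets differ in how strongly they bind their target, so levels are read against background and not between genes. The Sertoli cell list had 17 probe sets, of which 5 exceeded background on each of the 6 arrays, those of Wt1, Gata4, Clu, Ctsl and Vim, while 11 did so on none, among them Amh, Cldn11 and Dhh. Sox9 exceeded it on 5 of the 6 arrays. Of 14 probe sets for peritubular myoid and fibroblast markers, 13 were above it on all 6 arrays, against 0 of 6 for germ cells, 0 of 11 for macrophages and leukocytes and 0 of 4 for endothelium. The labelled cell type is therefore only partly borne out by its markers, and in such bulk RNA fewer cells of a type and less RNA per cell cannot be told apart.

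Promoter sequences are shown for Fdx1, the member that varied most between samples, for Fdxr, which acts with it, and for the enzyme they serve, Cyp11a1. Each runs 5′ to 3′ on the gene's strand, from 250 bases before the annotated start in lower case to 50 bases after it in capitals (RefSeq, build GRCr8). Fdx1 lies at chr8:61183596-61183895 on the reverse strand, Fdxr at chr10:101015486-101015785 on the reverse strand and Cyp11a1 at chr8:67318415-67318714 on the forward strand.
Fdx1: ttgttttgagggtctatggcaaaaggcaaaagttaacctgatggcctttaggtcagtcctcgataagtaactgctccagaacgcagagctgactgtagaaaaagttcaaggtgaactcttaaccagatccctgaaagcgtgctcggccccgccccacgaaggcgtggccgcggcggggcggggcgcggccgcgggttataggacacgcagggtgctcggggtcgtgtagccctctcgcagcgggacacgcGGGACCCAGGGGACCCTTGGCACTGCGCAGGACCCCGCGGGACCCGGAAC
Fdxr: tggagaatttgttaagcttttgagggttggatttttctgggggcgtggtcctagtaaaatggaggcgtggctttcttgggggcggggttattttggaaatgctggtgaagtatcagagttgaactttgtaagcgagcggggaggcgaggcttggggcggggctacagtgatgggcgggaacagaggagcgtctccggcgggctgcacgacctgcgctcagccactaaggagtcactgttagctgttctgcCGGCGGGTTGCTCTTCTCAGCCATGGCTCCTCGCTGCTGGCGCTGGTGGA
Cyp11a1: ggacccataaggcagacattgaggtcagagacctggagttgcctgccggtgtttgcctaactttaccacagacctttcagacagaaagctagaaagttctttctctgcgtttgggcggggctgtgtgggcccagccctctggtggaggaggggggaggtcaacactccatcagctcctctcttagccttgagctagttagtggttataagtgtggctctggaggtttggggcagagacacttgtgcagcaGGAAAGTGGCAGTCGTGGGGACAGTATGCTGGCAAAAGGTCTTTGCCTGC
The table held 5 of the 10 members, the other 2 being Lhcgr and Insl3. Its Fdx1 window has 62.0% G and C with 26 CG pairs and that of Fdxr 57.7% with 17, while that of Cyp11a1 has 54.7% with 4. Over all 33469 promoters the medians are 51.7% and 7. Letters of a half-site of steroidogenic factor 1 (AAGGTCA), of a GATA site (AGATAA) and of a half-site of the cAMP response element (TGACG) were searched on both strands. None of the 5 windows holds any of these exact letters, while 4.61%, 11.6% and 21.2% of all windows do. With 5 windows and such shares, the absence is not read as a result. Near matches, such as gaggtca in the Cyp11a1 window, were not counted.

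Star (chromosome 16, 70698593 to 70705478, Rnor_5.0, as for all positions of probe sets' genes below) was far above background on every array. Its log2 signal was 11.02, 10.84 and 11.16 in control arrays 1, 2 and 3 and 11.06, 10.79 and 11.17 in the MBP arrays of the same numbers. Control and MBP values interleaved, and in each group number 2 was lowest and number 3 highest. Group means were 11.01 ± 0.16 (SD, n = 3) and 11.01 ± 0.19. The 95% interval of the MBP to control ratio was 0.803 to 1.24 in the limma fit over all arrays, and 0.913 to 1.09 with the sample number as a block. Star was the only member that also exceeded the 99th percentile of the intron controls on all 6 arrays.

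The enzymes Cyp11a1, Cyp17a1 and Cyp19a1 were below background on all 6 arrays. Cyp11a1 (chromosome 8, 62574085 to 62585611), which makes pregnenolone, had log2 signals of 2.67, 2.48 and 2.67 in controls and 2.67, 2.70 and 2.52 with MBP. Cyp17a1 (chromosome 1, 273852190 to 273858192) had 2.85, 2.76 and 2.78 in controls and 2.72, 2.88 and 2.76 with MBP. Cyp19a1 (chromosome 8, 57321085 to 57348101) had 2.50, 2.44 and 2.16 in controls and 2.25, 2.62 and 2.40 with MBP. The groups overlapped for each of these enzymes. For signals below background on all arrays, log2 differences are those of the measured signals, no fold is given, and a fall of the transcript could not be seen.

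The electron donors of Cyp11a1 were read against background in the same way. Fdx1 (chromosome 8, 54958315 to 54977222) stood at 6.68, 6.91 and 5.74 in control arrays 1, 2 and 3 and at 6.66, 7.04 and 5.58 with MBP. In both groups the arrays of numbers 1 and 2 were above background and the array of number 3 was below it. Fdxr (chromosome 10, 104468583 to 104477286) stood at 5.59, 5.57 and 5.27 in controls and at 5.66, 5.58 and 5.41 with MBP. It lay below background on all 6 arrays, and above the 90th percentile of the intron controls on all of them.

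Of the 2 members tied to cholesterol supply at membranes, Scarb1 was above background on every array, and on 5 of 6 with the antigenomic controls as background. This receptor takes up cholesteryl ester from high-density lipoprotein, and rat Sertoli cells are also known to use it to recognise dying germ cells. Scarb1 (chromosome 12, 38572168 to 38638463) stood at 6.24, 6.27 and 6.37 in controls and 6.24, 6.21 and 6.30 with MBP, with overlapping groups. On the number 3 arrays its margin was small, the background values there being 6.20 for control and 6.18 for MBP. Tspo, a cholesterol-binding protein of the outer mitochondrial membrane (chromosome 7, 124449359 to 124459089), stood at 6.38, 6.36 and 5.98 in controls and 6.55, 6.48 and 6.01 with MBP. As for Fdx1, the arrays of number 3 were the lowest in both groups and the ones below background.

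The receptor and the hormone that mark Leydig cells were below background on all 6 arrays. Lhcgr (chromosome 6, 22455216 to 22516387) had 2.44, 2.42 and 2.36 in controls and 2.54, 2.40 and 2.45 with MBP. Insl3 (chromosome 16, 19981806 to 19983156) had 4.39, 4.26 and 4.59 in controls and 4.54, 4.62 and 4.54 with MBP. The groups overlapped for both genes. Among the 15 probe sets listed for Leydig and adrenal cells, 7 of them members, 3 were above background on all 6 arrays, those of Star, Scarb1 and Thbs2, and 9 were on none. Nr5a1, the steroidogenic factor 1 that binds Star's promoter, was above background on 2 of the 6 arrays.

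**Figure D1:**
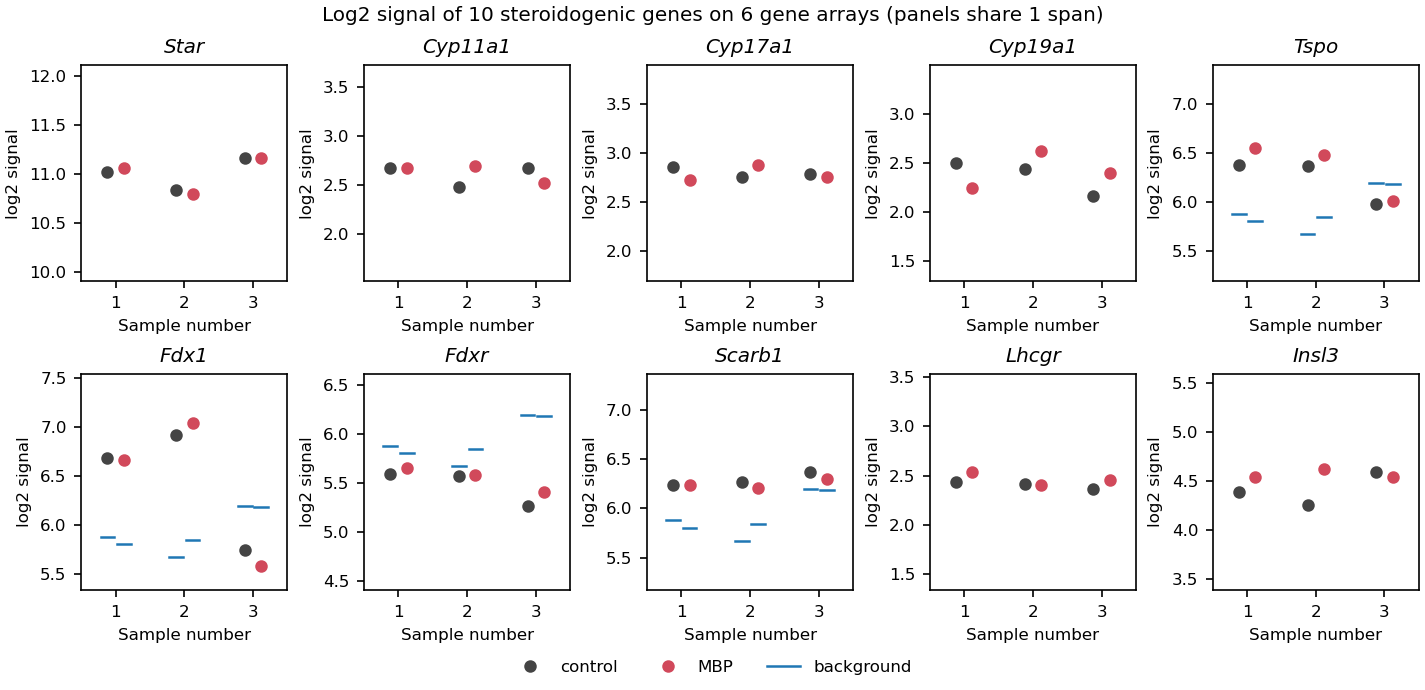
Log2 signal of each member (vertical axis, with the same span in each panel) by sample number (horizontal axis), with control arrays in grey, MBP arrays in red and blue bars for the background value of the same array where it falls within the panel. Points of the 2 groups lie close together at each number, and Fdx1 and Tspo drop below background at number 3 in both groups.

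MBP and control cultures were compared with limma over all 27342 probe sets, with Benjamini-Hochberg adjustment. No member had an adjusted p under 0.05 (all adjusted p = 1), and 0.0% of all probe sets had one. None of the 10 had an unadjusted p under 0.05, beside 1.28% of all probe sets, and groups overlapped for all 10, while they did not overlap for 3.43% of all. By sign, 6 members were higher with MBP and 4 lower, with a median log2 difference of 0.039 against -0.0065 over all probe sets. With the sample number as a block no member passed either (smallest adjusted p = 0.865).

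Intervals differed widely between members. That of Fdx1 ran from -1.18 to 1.14 on the log2 scale, which covers changes beyond 2-fold both ways. With the sample number as a block it ran from -0.21 to 0.16, a ratio of 0.866 to 1.12. Tspo differed by 0.11 (-0.34 to 0.56), and by block from -0.03 to 0.25, and it was higher with MBP in all 3 same-numbered pairs, by 0.17, 0.12 and 0.03. Fdxr was higher in all 3 pairs too, by 0.06, 0.01 and 0.14, below background, and 9.08% of all probe sets were higher in every pair. Insl3, below background on all 6 arrays, had a measured difference of 0.16 (interval -0.07 to 0.38), with 0.15, 0.36 and -0.05 in the pairs. For Scarb1, whose signals lay near background, the interval was -0.19 to 0.10, and the ratio of signals lay between 0.877 and 1.07. These members therefore did not differ between the groups beyond the spread between arrays, which does not show that their levels are equal.

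**Figure D2:**
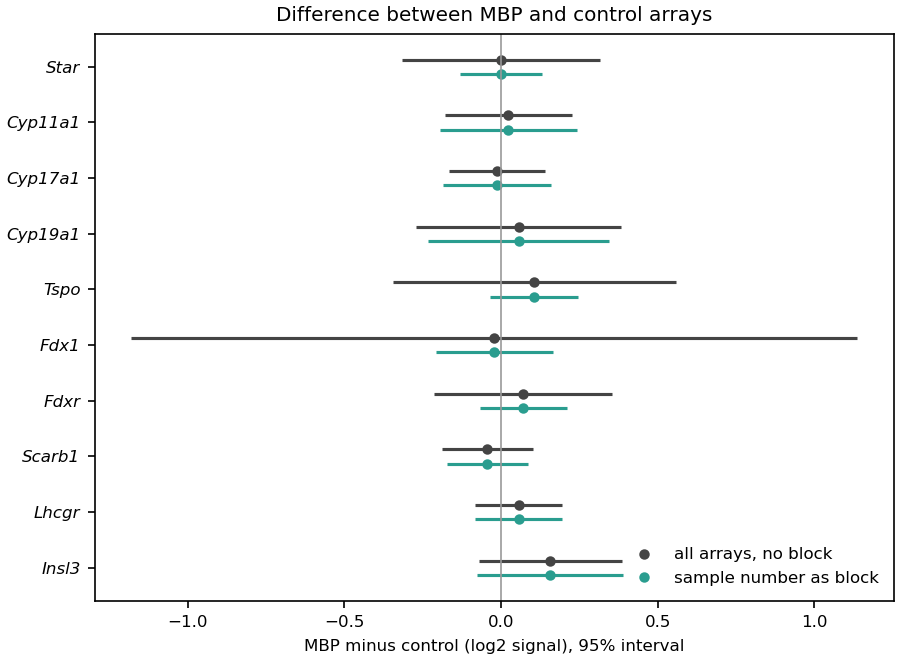
MBP minus control difference in log2 signal (horizontal axis) of each member with its 95% interval from limma, without a block in grey and with the sample number as a block in green (n = 3 arrays a group). All intervals include 0, and that of Fdx1 narrows from -1.18 to 1.14 without the block to -0.21 to 0.16 with it.

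Differences between the sample numbers were larger than those between MBP and control for several members. They were tested with limma's moderated F test in a fit with sample number and treatment, each number holding 2 arrays. Fdx1 (adjusted p = 0.00892) and Tspo (adjusted p = 0.0314) passed, so 2 of 10 members did, beside 9.62% of all probe sets. Both were above background on 4 of the 6 arrays. Of the 8404 probe sets above it on at least 1 array 23.7% passed, and of the 6341 above it on all 6 arrays 24.1%. Star had an adjusted p of 0.0587 and Fdxr of 0.0921, and the other 6 members lay between 0.497 and 0.920. The members' share is not read as a result about the pathway, since many bright genes of these arrays differ by number.

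Fdx1, the ferredoxin, fell in number 3. Its mean log2 signal over the control and MBP arrays was 6.67 in number 1, 6.97 in number 2 and 5.66 in number 3. The difference of number 3 from number 1 was -1.01 (interval -1.24 to -0.78, limma, adjusted p = 0.00983) and from number 2 it was -1.31 (-1.54 to -1.09, adjusted p = 0.00496). The gap appeared in both groups alike, with a range over the 3 numbers of 1.17 in control and 1.46 in MBP arrays. Because number 3 lay below background, number 1 was at least 1.40-fold and number 2 at least 1.72-fold brighter. That bound is the number's mean against the background value of the number 3 arrays.

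Tspo fell in number 3 as well. Its number means were 6.46, 6.42 and 5.99. Number 3 was lower than number 1 by -0.47 (interval -0.64 to -0.30, limma, adjusted p = 0.0254) and than number 2 by -0.43 (-0.60 to -0.25, adjusted p = 0.0258). Against the background value of number 3, numbers 1 and 2 were at least 1.21-fold and 1.17-fold brighter. With antigenomic control probe sets as background Tspo was above it on all 6 arrays, and Fdx1 on the same 4 as before. Calls in these directions, lower in number 3 than in number 1 or number 2, were made for 4.18% and 4.82% of all probe sets.

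Star did not fall in number 3. Its number means were 11.04, 10.82 and 11.17, and number 3 exceeded number 2 by 0.35 (interval 0.19 to 0.51, limma, adjusted p = 0.0341), a direction and call shared by 5.72% of all probe sets. Number 3 against number 1 was 0.13 (-0.03 to 0.29, adjusted p = 0.305) and number 2 against number 1 was -0.22 (-0.38 to -0.06, adjusted p = 0.189). Between numbers 1 and 2 no member passed, beside 0.135% of all probe sets higher and 0.197% lower in number 2. The F test of Star passed under quantile normalization (adjusted p = 0.0225), with an intensity trend (0.0123) and when only probe sets above background were fitted (0.00361). These fits called more probe sets than the main fit, 3614 and 3656 of 27342 and 4052 of 6341, so Star's calls there are shared by many. As in the main fit, Star's F test did not pass under median centring (limma, adjusted p = 0.0627) or with the robust variance setting (0.0584). Fdxr's number means of 5.63, 5.58 and 5.34 were lowest in number 3 and did not pass. Scarb1 differed little, with number means of 6.24, 6.24 and 6.33.

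**Figure D3:**
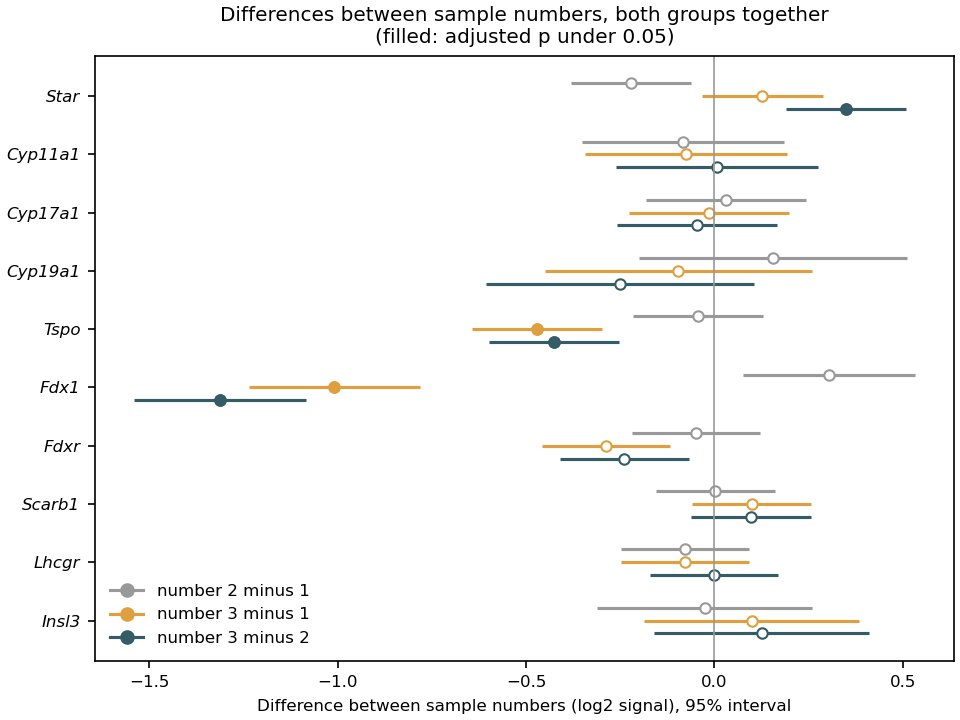
Differences in log2 signal between sample numbers (horizontal axis) for each member, control and MBP arrays together, with 95% intervals from the fit with sample number and treatment (filled points have an adjusted limma p under 0.05). Fdx1 and Tspo are lower in number 3 than in both other numbers, and Star is higher in number 3 than in number 2.

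With any 1 of the 6 arrays left out, which was tried after seeing the data, the sample number fit made 0 calls over all probe sets. The differences kept their sign: number 3 minus number 2 ranged from -1.42 to -1.20 for Fdx1, from -0.48 to -0.37 for Tspo and from 0.32 to 0.38 for Star. The background value of the intron controls was 6.20 and 6.18 on the number 3 arrays and 5.67 to 5.88 on the others, while that of the antigenomic controls was lower on number 3 (5.84 on both) than on the others (6.09 to 6.30). Myoid and fibroblast markers moved with the number too. Of their 14 probe sets 11 passed the F test, and 8 of these were highest in number 3 (4.67% of all probe sets passed and were highest there, 3.9% lowest), among them the smooth muscle genes Myh11, Cnn1 and Actg2. Another 2 were lowest in number 3, Dcn (11.10, 11.26 and 10.56) and Lum (6.65, 5.95 and 5.52), and 1, Thy1, was in the middle there. The list's mean log2 signal was 8.81, 8.83 and 9.47 in numbers 1, 2 and 3, and no probe set of it was below background on every array. The summed log2 signal ran from 123.72 to 132.88 in control and from 122.72 to 132.37 in MBP arrays. The part of these differences in the values of Fdx1, Tspo and Star was not tested.

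Probe sets most like Star were sought among 5210 others with 1 symbol and above background on all 6 arrays. The measure was the root mean square difference of mean-centred log2 signals over the 6 arrays. The closest were Aldh1l2, a mitochondrial folate enzyme, at 0.0226 log2 units, the poly(A)-binding gene Zc3h14 at 0.0234, Srek1ip1 at 0.0243, the ribosome-binding gene Rrbp1 of the endoplasmic reticulum at 0.0246 and the RAS pathway scaffold Shoc2 at 0.0293. Star's own SD over the arrays was 0.159. These genes were likewise lowest in number 2 and highest in number 3 in both groups, with number 3 minus number 2 from 0.29 for Shoc2 to 0.35 for Zc3h14, and none of the 5 passed the F test (adjusted p = 0.0529 to 0.0874). They were chosen for this likeness, which is therefore no separate result.

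**Figure D4:**
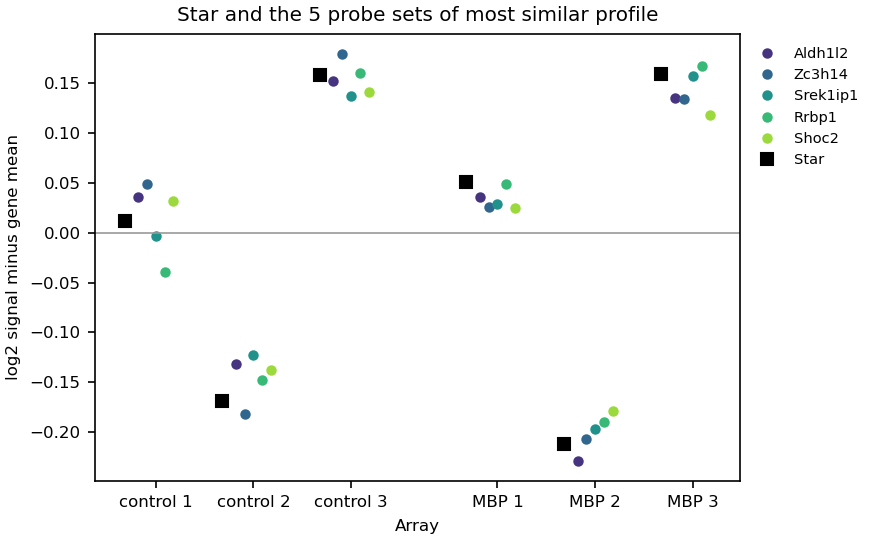
Log2 signal minus the gene's own mean (vertical axis) on each of the 6 arrays (horizontal axis) for Star (black squares) and the 5 probe sets of most similar profile (coloured points). All 6 lie lowest on the arrays of number 2 and highest on those of number 3.

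Other genes of the pathway were taken from 6 lists, and no probe set of any list passed the test of MBP against control (limma, adjusted p) or had an unadjusted p under 0.05. With the sample number as a block none passed either, and 7 of the 141 pathway probe sets had an unadjusted limma p under 0.05, beside 4.59% of all probe sets. Of these, Slc25a3, Srd5a3, Nr1h2 and, below background, Pde4b were lower with MBP in all 3 pairs and 3 probe sets below background were higher in all 3, each with an adjusted p of 0.865. Median log2 differences were -0.042 for enzymes of steroid conversion (25 probe sets, 9 higher), -0.0030 for regulators of Star transcription (29, 14 higher) and 0.017 for other START domain and sterol transfer genes (30, 16 higher). They were -0.030 for mitochondrial partners of cholesterol import (18, 5 higher), -0.0037 for gonadotropin and cAMP signalling (28, 13 higher) and -0.016 for steroid receptors (11, 3 higher), against -0.0065 over all probe sets. Slc25a3, the mitochondrial phosphate carrier, had the smallest p of the mitochondrial list, at 9.09 ± 0.09 (SD, n = 3) for control and 8.93 ± 0.03 for MBP. The channel Vdac3 stood at 9.54 ± 0.05 and 9.44 ± 0.11, and the steroid reductase family member Srd5a3 at 7.74 ± 0.12 and 7.57 ± 0.14. The cytochrome gene Cyb5b stood at 7.55 and 7.50, the lipid transfer gene Stard7 at 7.22 and 7.11, the lysosomal sterol carrier Npc2 at 8.57 and 8.50 and the transcription factor Gata4 at 8.11 and 8.02. Adcy7, an adenylyl cyclase, stood at 6.92 and 6.87. A bright probe set named for Fshr, at 10.56 and 10.68, lists 2 GAPDH transcripts in its annotation and cannot be credited to the FSH receptor. Another probe set named for Fshr, at 2.57 for control and 2.62 for MBP, was below background on all 6 arrays. Both are counted among the 28 of gonadotropin and cAMP signalling.

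By sample number the lists gave 3 calls of 25 for steroid conversion, 6 of 29 for regulators of Star and 7 of 30 for START domain and sterol transfer genes. They gave 1 of 18 for mitochondrial partners, 3 of 28 for cAMP signalling and 1 of 11 for steroid receptors, beside the 9.62% of all probe sets. Among probe sets above background on all 6 arrays, 24.1% were called. There the lists gave, in the same order, 1 of 7, 4 of 14, 4 of 14, 1 of 16, 0 of 5 and 1 of 2. The lists' shares are not read as results about the pathway. Lower in number 3 were Nr3c1, the glucocorticoid receptor, with number means of 7.41, 7.62 and 6.70 (limma, adjusted p = 0.00858), and Hsd17b11, a 17-beta-hydroxysteroid dehydrogenase family member, with 7.62, 7.62 and 7.15 (adjusted p = 0.0227). Dbi, which encodes a ligand of Tspo, had number means of 7.32, 7.08 and 6.68 (adjusted p = 0.0248), falling in number 3 as Tspo did. Higher in number 3 were the START domain gene Dlc1 with 6.59, 6.77 and 7.47 (adjusted p = 0.0153) and the orphan nuclear receptor Nr2f2 with 7.60, 7.77 and 8.18 (adjusted p = 0.0194). Nr1h2, an oxysterol receptor, was highest in number 2, with 7.39, 7.78 and 7.31 (adjusted p = 0.0310), and it stood at 7.58 ± 0.28 in controls and 7.40 ± 0.23 with MBP. The genes of next smallest p did not pass, among them the mitochondrial protease Clpp (7.34, 7.48 and 6.92, adjusted p = 0.0515), Rgs2 (7.14, 6.76 and 6.45, adjusted p = 0.0581) and Hsd17b10 (8.05, 8.11 and 7.81, adjusted p = 0.0884). Pde8a, a phosphodiesterase of cAMP, had 7.33, 7.30 and 7.63 (adjusted p = 0.110), and Pgrmc2 had 7.69, 7.61 and 7.82 (adjusted p = 0.234).

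**Figure D5:**
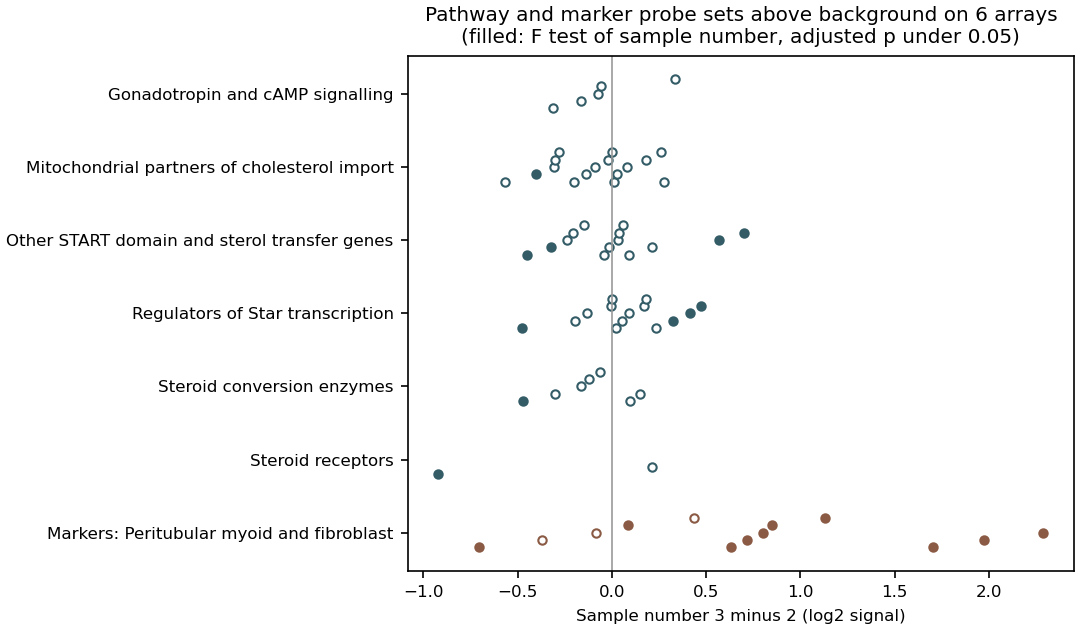
Number 3 minus number 2 difference in log2 signal (horizontal axis) of the probe sets above background on all 6 arrays in the 6 pathway lists and the myoid and fibroblast marker list (filled points have an adjusted p under 0.05 in the F test of sample number). Pathway points lie on both sides of 0, with Nr3c1 lowest at -0.92, and 4 marker points lie beyond 1.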

How the data were processed

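The authors' deposited gene array table holds 1 value per probe set and array, taken as a log2 signal from the range of its values. The main fits used these values without further scaling, and whether they were normalized across the 6 arrays is not stated. MAS5 appears in the submitters' processing notes without a role, and how these values were made is not given in the sources. An annotated table supplied symbols, categories and Rnor_5.0 positions, and its 6 signal columns were not used, as their names fit no sample. The microRNA arrays were not used here.

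Of 29214 probe sets the 27342 of category main were fitted. For the pathway and marker lists, symbols were updated through RefSeq synonyms (2318 of the 27342 probe sets). Fits used limma 3.58.1 in R 4.3.3 with default lmFit and eBayes and Benjamini-Hochberg adjustment. They were tried on simulated data with independent noise on each array and 200 shifted probe sets. The MBP test called 77% of log2 shifts of 1 and 98% of shifts of 2. The sample number test called 70% of log2 shifts of 2 in number 3, so it misses some large differences. The precision is set by the number of arrays, which have no read depth. Members and lists were chosen with earlier results of these data known. For each pathway list the text names the 2 probe sets of smallest p per comparison among those above background on all 6 arrays, and the 5 nearest to Star were taken by rule. One gene that this rule takes is not reported here. Myh11, Cnn1, Actg2 and the other markers named, Thbs2, Nr5a1 and Pde4b were named after their values were seen.

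Deviations of same-numbered control and MBP arrays from their group means correlated across probe sets at 0.567, 0.603 and 0.779, against at most 0.048 for different numbers. Every one exceeded 0.1, so the numbers pair the samples, on the basis of the data and not of the labels. Alternatives were other scalings, filters, variance settings, the replicate block and leaving out arrays.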

Additional observations from a re-analysis of the deposited data

How the results depend on the processing

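The count of probe sets called for MBP against control was 0 in all 15 alternatives, and so was that of members, the replicate block and every single array left out included. The block changed no call. Signs of the members' differences were not stable where the values were near 0. Under quantile normalization Star turned to 0.019 and Fdx1 to 0.0040, and under median centring Cyp11a1 turned to -0.0027. With the replicate block and both arrays of number 1 left out Cyp17a1 turned to 0.046, without number 2 Star turned to 0.021, Cyp11a1 to -0.074 and Cyp19a1 to -0.0078, and without number 3 Cyp19a1 turned to -0.036 and Fdx1 to 0.050. Leaving out single arrays makes sample numbers unequal between the groups, and differences then ranged from -0.086 to 0.10 for Star, -0.041 to 0.078 for Cyp11a1, -0.059 to 0.019 for Cyp17a1, -0.048 to 0.14 for Cyp19a1, -0.025 to 0.27 for Tspo, -0.37 to 0.40 for Fdx1, -0.035 to 0.14 for Fdxr, -0.072 to -0.0036 for Scarb1, 0.019 to 0.087 for Lhcgr and 0.08 to 0.24 for Insl3. Scarb1, Lhcgr and Insl3 kept their sign in every alternative that gave them a value.

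The sample number test called 4052 of 6341 probe sets when only those above background were fitted, against 2630 of 27342, and 1 of the 2 members in that fit (Star). It called 0 probe sets and 0 members with any single array left out, a fit of 5 arrays. Members above background on all 6 arrays numbered 2, but 5 at the 90th and 1 at the 99th percentile of the intron controls. With the antigenomic controls they numbered 2 as well, Star and Tspo in place of Star and Scarb1. The 5 probe sets nearest to Star are the same after median centring by construction. Of the 10 members, 6 are limited by signals below background on all 6 arrays, and Fdx1 and Tspo by signals below it on the arrays of number 3.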
